A study of Homo sapiens with 15 samples.

Results

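The transcripts of glycolysis and of the response to low oxygen were followed in 5 sublines of VCaP, an established human prostate cancer cell line that carries the androgen receptor. The set was a fixed list of 35 genes, matched from Ensembl identifier to symbol, out of 58381 genes listed in each count file, drawn up with earlier results of these data known but with no threshold on any value. All 35 were found. VCaP-T had been kept for 7 months with testosterone at 10 nM. VCaP-CT was derived from it by 10 further months in low testosterone, given as 0.1 nM in the treatment protocol but as 10 nM in the sample labels. VCaP-CT-ER came from VCaP-CT kept in 10 µM enzalutamide until it grew again, VCaP-CT-BR came from VCaP-CT by exposure to bicalutamide, and its descendant under enzalutamide was VCaP-CT-BR-ER. Enzalutamide and bicalutamide are antagonists of the androgen receptor. The sample label given to VCaP-CT-BR mentions enzalutamide after bicalutamide insensitivity, so its exposure is not certain. All sublines shared the RPMI 1640 medium with charcoal-stripped serum and the testosterone period that made VCaP-T. A single derivation is described for each subline, so treatment, time in culture and clone cannot be told apart. The p-values below measure only the spread between the 3 libraries of a subline, pooled over all 5 sublines.

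The 15 libraries held between 33.7 and 46.9 M counted fragments. The correlation of log2 levels was at least 0.9941 within sublines and at most 0.9787 between sublines, across genes, which are not independent replicates. All 9 prostate tumour markers lay above 1 CPM (counts scaled to the library total) on average, with summed levels of 7382 to 7575 CPM in VCaP-T, 3062 to 3137 for VCaP-CT, 7020 to 7263 for VCaP-CT-ER, 3611 to 3876 for VCaP-CT-BR and 6517 to 6899 for VCaP-CT-BR-ER. Markers of other cells also moved between the sublines. The 5 fibroblast markers summed to between 7.58 and 25.3 CPM in VCaP-T, VCaP-CT and VCaP-CT-BR and to between 190 and 249 CPM in the enzalutamide-resistant sublines, of which LUM alone made up 188 to 247 CPM. The other fibroblast markers did not follow it together, since COL1A1 was highest in VCaP-T (mean 6.52 CPM), PDGFRB in VCaP-CT (3.31 CPM) and DCN in VCaP-CT-ER (0.426 CPM), and COL1A2 was at or under the floor of 3 counts. The 5 immune markers summed to 45.3 to 58.2 CPM in VCaP-T and to at most 1.08 CPM elsewhere, nearly all of it LYZ (45.2 to 58.2 CPM in VCaP-T), with PTPRC and CD3E at or under the floor. The 4 endothelial markers summed to 13.0 to 16.3 CPM in VCaP-T, 8.05 to 9.22 for VCaP-CT and at most 1.57 elsewhere, with CDH5 and KDR at or under the floor. Their part in the results was not tested.

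Glycolysis splits glucose into pyruvate and yields ATP without oxygen, and lactate dehydrogenase then turns pyruvate into lactate, which leaves the cell through monocarboxylate transporters. When oxygen is scarce, prolyl hydroxylases of the EGLN family stop marking the alpha subunits of the hypoxia-inducible factors (HIF) for destruction, and the stabilised factors raise many glycolytic genes and genes of blood supply, pH control and mitochondrial turnover. Prostate epithelium is known for an unusual metabolism that secretes citrate, and androgens are known to act on glucose handling in prostate cancer cells. The study's methods give the base medium for the culture that made VCaP-T, and name only testosterone and antagonists for the later sublines. No label describes low oxygen, and oxygen was not measured.

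HIF binds DNA at a short core, here searched as the letters ACGTG or GCGTG on both strands, in the 250 bases before the start of each gene in the RefSeq promoter table (GRCh38.p14). The letters CACGTG hold ACGTG on each strand and count as 2 matches. Of the 35 members, 31 had a promoter in the table, and 20 of these (64.5%) held at least 1 core, compared with 43.1% of all 27305 promoters. ACGTG was found in 12 of the 31 members' windows (38.7%, against 18.7% of all) and GCGTG in 13 (41.9%, against 31.9% of all). A match is a description of letters and does not show binding. The members were chosen for glycolysis and the hypoxia response, so a higher share among them is not a result of these data. The windows of 5 members that the results turn on are printed as examples that differ in these letters: EPAS1 (chr2:46297157-46297406, plus strand), EGLN3 (chr14:33951075-33951324, minus strand), CA12 (chr15:63381847-63382096, minus strand), HK2 (chr2:74833877-74834126, plus strand) and LDHA (chr11:18394313-18394562, plus strand). The transcripts of all 5 passed the threshold in VCaP-CT against VCaP-T. Each is read from 5′ to 3′ in the direction of its gene, with the cores in capitals. All 5 RefSeq starts lie inside the gene models of the counting annotation, 3740 bases from the model's first base for EPAS1, 511700 for EGLN3 and 315, 146 and 175 for CA12, HK2 and LDHA, so the windows do not cover every annotated start.
EPAS1: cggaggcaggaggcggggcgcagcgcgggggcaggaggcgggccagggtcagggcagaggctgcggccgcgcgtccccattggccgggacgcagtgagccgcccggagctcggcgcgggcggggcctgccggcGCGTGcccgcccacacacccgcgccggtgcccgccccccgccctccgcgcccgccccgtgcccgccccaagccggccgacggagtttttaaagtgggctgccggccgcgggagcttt
EGLN3: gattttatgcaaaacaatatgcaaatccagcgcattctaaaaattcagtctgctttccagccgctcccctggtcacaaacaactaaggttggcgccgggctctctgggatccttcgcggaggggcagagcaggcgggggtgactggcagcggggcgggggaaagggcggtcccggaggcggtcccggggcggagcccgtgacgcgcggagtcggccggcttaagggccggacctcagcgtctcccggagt
CA12: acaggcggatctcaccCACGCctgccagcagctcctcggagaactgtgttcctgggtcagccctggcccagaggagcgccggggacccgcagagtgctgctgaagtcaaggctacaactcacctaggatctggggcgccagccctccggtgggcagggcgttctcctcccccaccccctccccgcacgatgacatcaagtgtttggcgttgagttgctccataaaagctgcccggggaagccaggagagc
HK2: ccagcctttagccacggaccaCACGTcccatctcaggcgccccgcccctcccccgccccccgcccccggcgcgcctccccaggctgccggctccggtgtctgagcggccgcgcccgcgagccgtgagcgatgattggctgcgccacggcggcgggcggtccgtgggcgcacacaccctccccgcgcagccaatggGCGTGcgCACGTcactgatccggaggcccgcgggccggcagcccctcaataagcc
LDHA: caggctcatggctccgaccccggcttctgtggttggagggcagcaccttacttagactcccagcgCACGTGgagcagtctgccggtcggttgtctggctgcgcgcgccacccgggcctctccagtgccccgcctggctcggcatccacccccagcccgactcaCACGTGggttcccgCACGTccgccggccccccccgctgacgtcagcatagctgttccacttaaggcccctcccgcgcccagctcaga
LDHA held 5 matches of ACGTG and none of GCGTG, and HK2 held 2 of ACGTG and 1 of GCGTG. EPAS1 and CA12 each held 1 GCGTG, and EGLN3 held neither in this window.

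Most of the members were abundant, and 31 of the 35 had a mean of at least 1 CPM in every subline. Their spread was small, with a median coefficient of variation of 3.69% within a subline (range 0.413% to 26.2%). VCaP-T had the highest mean of the 5 sublines for 16 members, VCaP-CT-BR for 8, VCaP-CT-BR-ER for 6, VCaP-CT for 3 and VCaP-CT-ER for 2. The lowest mean was found in VCaP-CT-ER for 14 members, in VCaP-T for 9, in VCaP-CT for 6 and in VCaP-CT-BR, as also in VCaP-CT-BR-ER, for 3. For 18 members the highest subline mean was at least 2 times the lowest, and for 9 it was under 1.5 times. Per length of the exons (FPKM, the CPM level divided by the exon length in kilobases), GAPDH was the highest member in every subline and made up 32% of the summed FPKM of the members in VCaP-T and 38% to 40.2% in the other sublines.

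The steps of the derivation were tested with the quasi-likelihood F test of edgeR over 19621 genes, with a threshold of 0.05 on the adjusted p, and 34 members passed the filter on low counts. CA9, a carbonic anhydrase at the cell surface and a classic HIF target, did not, with at most 3 counts in any library. The ± beside a log2 fold change is its standard error, and the ± beside a CPM level is the SD of 3 libraries. In VCaP-CT against VCaP-T, 14 members rose (41.2%, where 33.1% of all genes tested rose) and 18 fell (52.9%, where 32.2% of all fell). In VCaP-CT-ER against VCaP-CT, 10 rose (29.4%, against 29.6% of all genes) and 18 fell (52.9%, against 31.2%). In VCaP-CT-BR against VCaP-CT, 12 rose (35.3%, against 26.1%) and 8 fell (23.5%, against 27%). In VCaP-CT-BR-ER against VCaP-CT-BR, 12 rose (35.3%, against 21.2%) and 10 fell (29.4%, against 21.7%). The comparisons share libraries, since VCaP-CT is the reference of both first antagonist steps and is itself compared with VCaP-T, and VCaP-CT-BR is compared with VCaP-CT and is the reference of the last step. The members' median log2 fold change was −0.23 for VCaP-CT against VCaP-T, −0.22 for VCaP-CT-ER against VCaP-CT, 0.049 for VCaP-CT-BR against VCaP-CT and −0.014 for VCaP-CT-BR-ER against VCaP-CT-BR, and the medians of all genes tested were 0.026, −0.019, −0.017 and 0.003. In bulk RNA, fewer cells that express a gene and less of its RNA in each cell cannot be told apart.

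**Figure D1:**
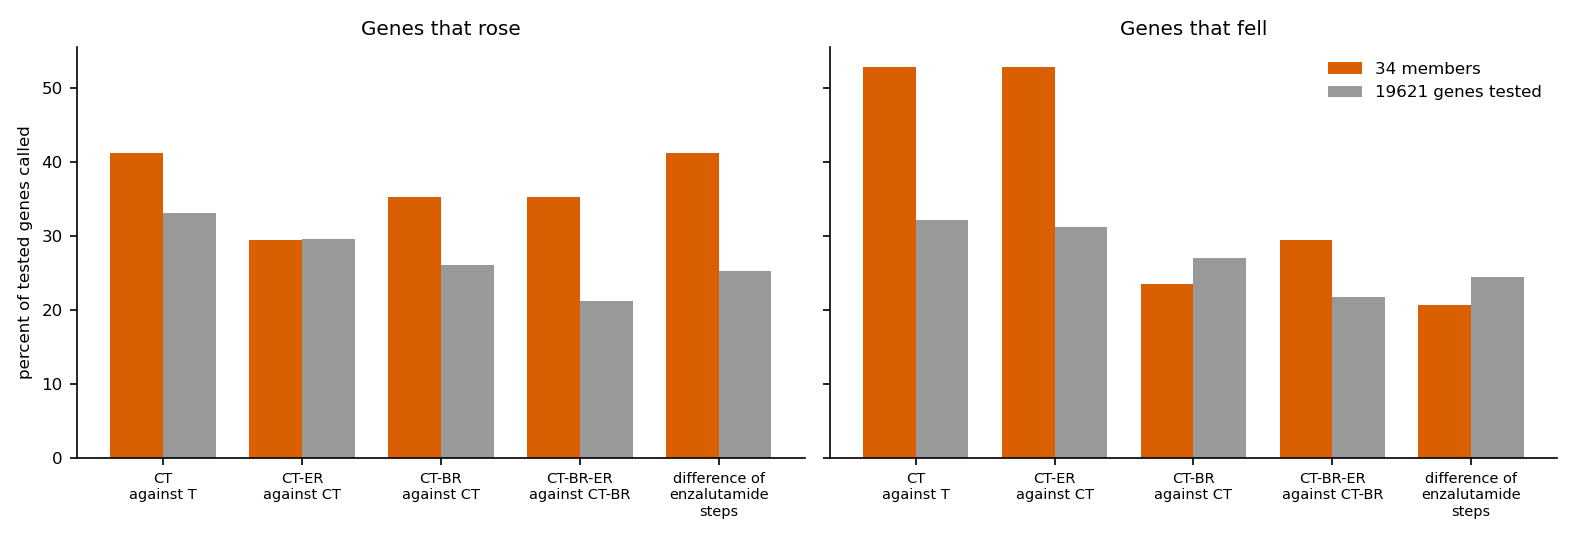
Share of tested genes that rose (left) and fell (right) in each comparison, in percent of the 34 members (orange) and of all 19621 genes (grey). Of the members 52.9% fell in VCaP-CT against VCaP-T, where 32.2% of all genes did, and 52.9% for VCaP-CT-ER against VCaP-CT, where 31.2% did.

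Changes of at least 2-fold were found for a minority of the 34 tested members in each step. In VCaP-CT against VCaP-T they were found for 2 members that rose and 8 that fell, where 8.6% and 12.2% of all genes did so. In VCaP-CT-ER against VCaP-CT 1 member rose and 3 fell at this size (7.96% and 9.58% of all genes), and in VCaP-CT-BR against VCaP-CT 1 rose and 2 fell (2.95% and 7.01%). In VCaP-CT-BR-ER against VCaP-CT-BR 3 rose and 2 fell (4.21% and 3.77%). As shares of the 34 tested members, the falls in VCaP-CT against VCaP-T and both directions in the last step exceeded the shares of all genes. The other shares of the members did not exceed them, and all rest on small numbers of members.

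**Figure D2:**
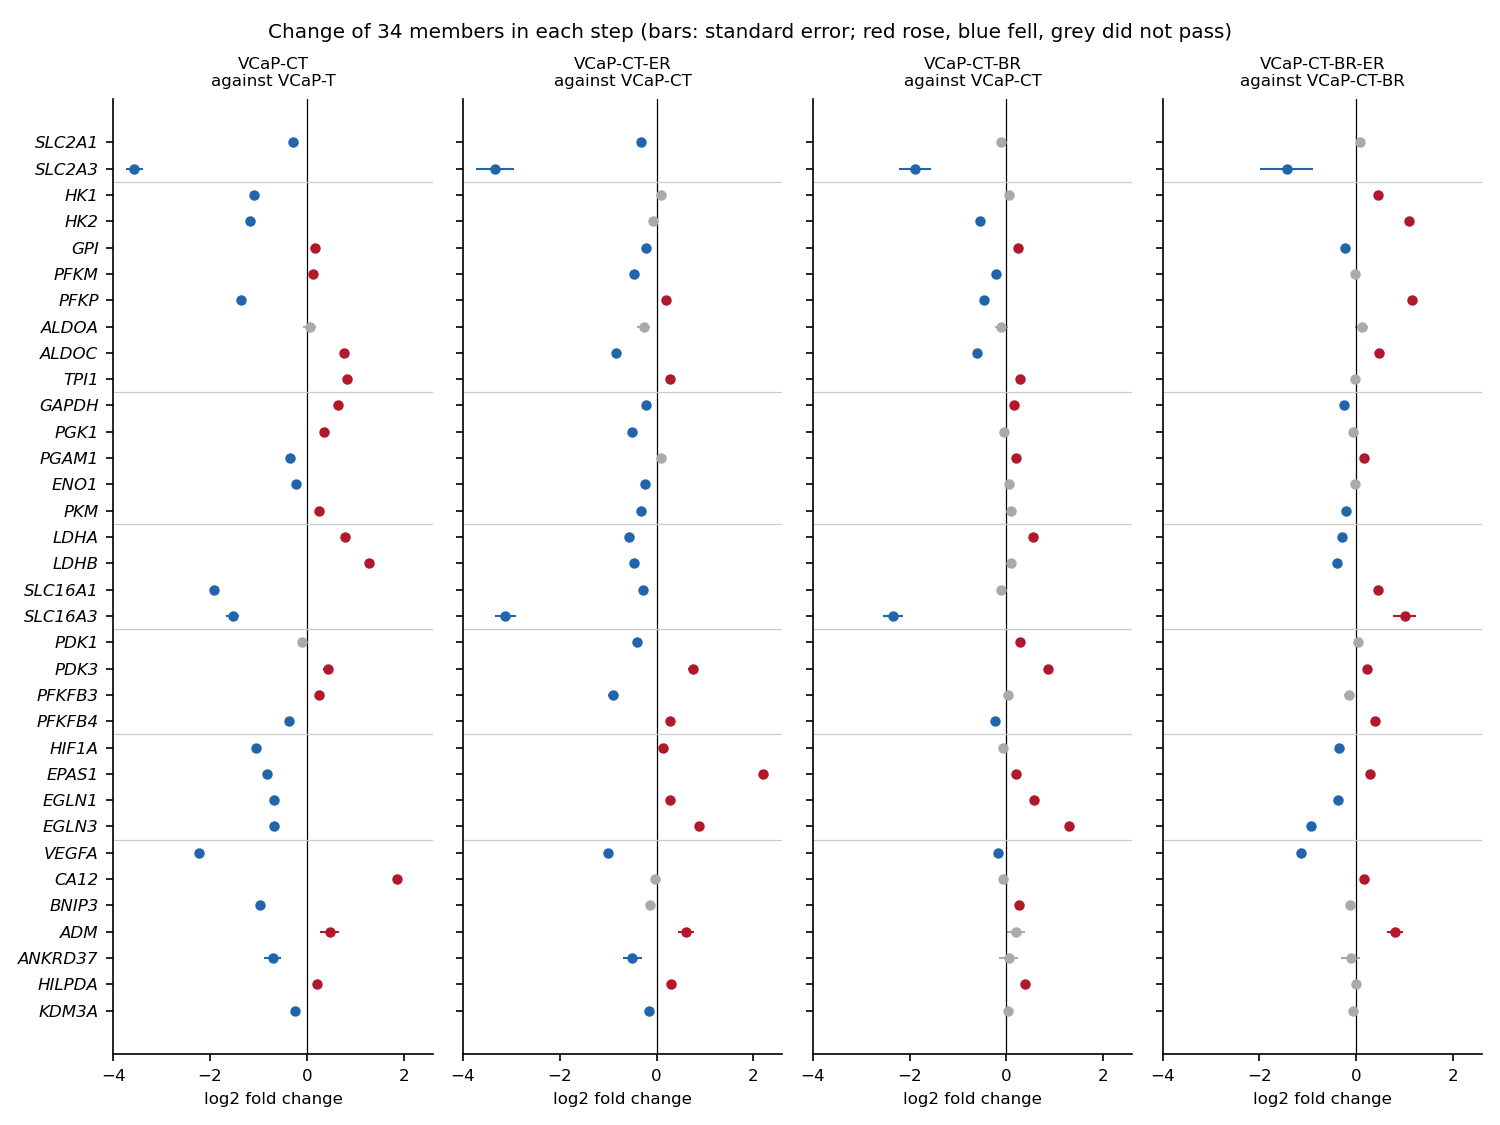
Log2 fold change of the 34 tested members (rows, grouped by role from glucose uptake at the top to hypoxia targets at the bottom) in the 4 steps of the derivation, with standard errors as bars. Red points rose, blue points fell and grey points did not pass the threshold; SLC2A3 fell in all 4 panels, from −3.56 at the left to −1.44 at the right, and VEGFA lies left of 0 in each.

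Glucose enters cells through facilitative transporters. SLC2A3, the high-affinity transporter best known from neurons, fell in each step, while SLC2A1, the widespread basal transporter, changed little. SLC2A3 had 236, 227 and 289 counts in VCaP-T, 16, 21 and 20 for VCaP-CT, 5, 8 and 4 for VCaP-CT-BR, 4, 1 and 2 for VCaP-CT-ER and 1, 2 and 3 for VCaP-CT-BR-ER. The VCaP-T libraries stand far above the others, VCaP-CT is separate from all 9 antagonist-treated libraries, and those 9 lie near the floor of 3 counts. SLC2A3 was 11.97-fold lower in VCaP-CT than in VCaP-T by summed counts (95% exact interval 9.14 to 15.96, for counting error only), with a fitted log2 fold change of −3.56 ± 0.17 (SE, adjusted p = 1.18e-13). It was 10.3-fold lower in VCaP-CT-ER than in VCaP-CT (4.69 to 26.8, adjusted p = 2.5e-07) and 3.73-fold lower in VCaP-CT-BR than in VCaP-CT (2.14 to 6.84, adjusted p = 5.71e-05). The last step rests on 6 counts against 17, a ratio of 0.354 with an interval of 0.114 to 0.942. Its adjusted p was 0.0475, and the call was lost on leaving out any one of 7 libraries (VCaP-T replicate 1, VCaP-CT-ER replicates 1 and 2, VCaP-CT-BR replicates 1 and 2, VCaP-CT-BR-ER replicates 1 and 2), with an adjusted p of up to 0.231. SLC2A1 was at 73.6 ± 1.98 CPM in VCaP-T and 49.5 ± 2.46 CPM for VCaP-CT-ER (SD, n = 3), its highest and lowest means. It fell to 0.815 of its level in VCaP-CT against VCaP-T (adjusted p = 0.000272) and to 0.802 in VCaP-CT-ER against VCaP-CT (adjusted p = 0.000151). SLC2A1 made up 93.7% of the FPKM of both transporters in VCaP-T and at least 99.3% in the other sublines.

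The preparatory steps spend ATP to turn glucose into triose phosphates, and the set holds 8 genes of these steps. HK2 and PFKP, a hexokinase and a phosphofructokinase, had the largest changes of the 8 in VCaP-CT against VCaP-T and in the last step, and ALDOC had the largest in both steps from VCaP-CT. HK1, HK2 and PFKP fell in VCaP-CT, and all 3 rose when VCaP-CT-BR became VCaP-CT-BR-ER. HK2, the inducible hexokinase linked to tumour glycolysis, was at 33.7, 34.7 and 36.9 CPM in VCaP-T, 16.8, 14.5 and 14.8 for VCaP-CT, 14.9, 15.3 and 15.3 for VCaP-CT-ER, 9.91, 10.7 and 11.3 for VCaP-CT-BR and 21.8, 23.1 and 22.9 for VCaP-CT-BR-ER. Only VCaP-CT and VCaP-CT-ER overlap among these 5 groups. HK2 fell by 1.18 ± 0.068 log2 units in VCaP-CT against VCaP-T (adjusted p = 2.42e-12) and by 0.55 in VCaP-CT-BR against VCaP-CT (adjusted p = 1.96e-06). In VCaP-CT-BR-ER against VCaP-CT-BR it rose by 1.10 ± 0.071 log2 units (adjusted p = 6.73e-11), whereas VCaP-CT-ER against VCaP-CT gave −0.069 ± 0.070 (adjusted p = 0.408). HK1, the hexokinase of most tissues, was at 210.1 ± 2.19 CPM in VCaP-T and 97.6 ± 7.11 for VCaP-CT, a log2 fold change of −1.10 ± 0.048 (adjusted p = 2.47e-14). It was 1.36-fold higher in VCaP-CT-BR-ER than in VCaP-CT-BR (adjusted p = 1.66e-07).

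PFKP, the platelet-type phosphofructokinase, was at 180.2, 165 and 176 CPM in VCaP-T, 69.5, 71.4 and 60.05 for VCaP-CT, 87.3, 79.6 and 71.6 for VCaP-CT-ER, 42.4, 54.9 and 51.1 for VCaP-CT-BR and 109.8, 113 and 106 for VCaP-CT-BR-ER. VCaP-T is the highest, VCaP-CT-BR-ER is next without overlap, and VCaP-CT-BR is the lowest. PFKP fell by 1.36 ± 0.082 log2 units in VCaP-CT against VCaP-T (adjusted p = 5.25e-12) and rose by 1.15 ± 0.083 log2 units in VCaP-CT-BR-ER against VCaP-CT-BR (adjusted p = 3.79e-10). In VCaP-CT-ER against VCaP-CT it rose by 0.20 log2 units (adjusted p = 0.0445), a call that was lost without VCaP-CT replicate 1 or 3 or VCaP-CT-ER replicate 1 or 2 (adjusted p up to 0.171). The muscle-type PFKM moved less, with means between 186 CPM for VCaP-CT-ER and 249 CPM for VCaP-CT, and fell by 0.48 log2 units in VCaP-CT-ER against VCaP-CT (adjusted p = 3.1e-09). About 8.58% of the exon bases of PFKM are shared with SENP1 on the other strand, and the counting ignored strand. Per length, PFKP made up 43.7% ± 1.34 of the FPKM of PFKM, PFKP and PFKL in VCaP-T, 19.5% ± 0.609 for VCaP-CT, 26.6% ± 0.888 for VCaP-CT-ER, 17.5% ± 1.27 for VCaP-CT-BR and 29.1% ± 0.419 for VCaP-CT-BR-ER (SD, n = 3).

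The aldolases, GPI and TPI1 had another order. ALDOC, the brain-type aldolase, was at 13.5, 13.5 and 15.2 CPM in VCaP-T, 23.3, 24.7 and 23.2 for VCaP-CT, 13.8, 14.4 and 12.7 for VCaP-CT-ER, 16.2, 15.8 and 15.6 for VCaP-CT-BR and 20.4, 23.6 and 21.7 for VCaP-CT-BR-ER. It was therefore high in VCaP-CT as well as VCaP-CT-BR-ER, and low in the other 3. Another gene model on the other strand shares 10.1% of its exon bases. ALDOC rose by 0.76 log2 units in VCaP-CT against VCaP-T (adjusted p = 5.64e-09), fell by 0.85 log2 units in VCaP-CT-ER against VCaP-CT (adjusted p = 1.25e-09) and rose by 0.47 log2 units in VCaP-CT-BR-ER against VCaP-CT-BR (adjusted p = 1.42e-05). TPI1, the triose phosphate isomerase, was at 235 ± 4.28 CPM in VCaP-T and between 411 and 512 CPM in the other means, with a rise of 0.82 ± 0.046 log2 units in VCaP-CT against VCaP-T (adjusted p = 1.7e-12). Its 4 named pseudogenes together took 82.0 to 189 CPM, and reads could be split between them and TPI1. GPI, which makes fructose phosphate, stayed between 327 and 435 CPM. ALDOA, usually the main aldolase, was listed at only 13.6 to 16.1 CPM and passed in no step. In the annotation used for counting, 53.5% of its exon bases overlap another gene model, so its level cannot be read as that of the aldolase.

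**Figure D3:**
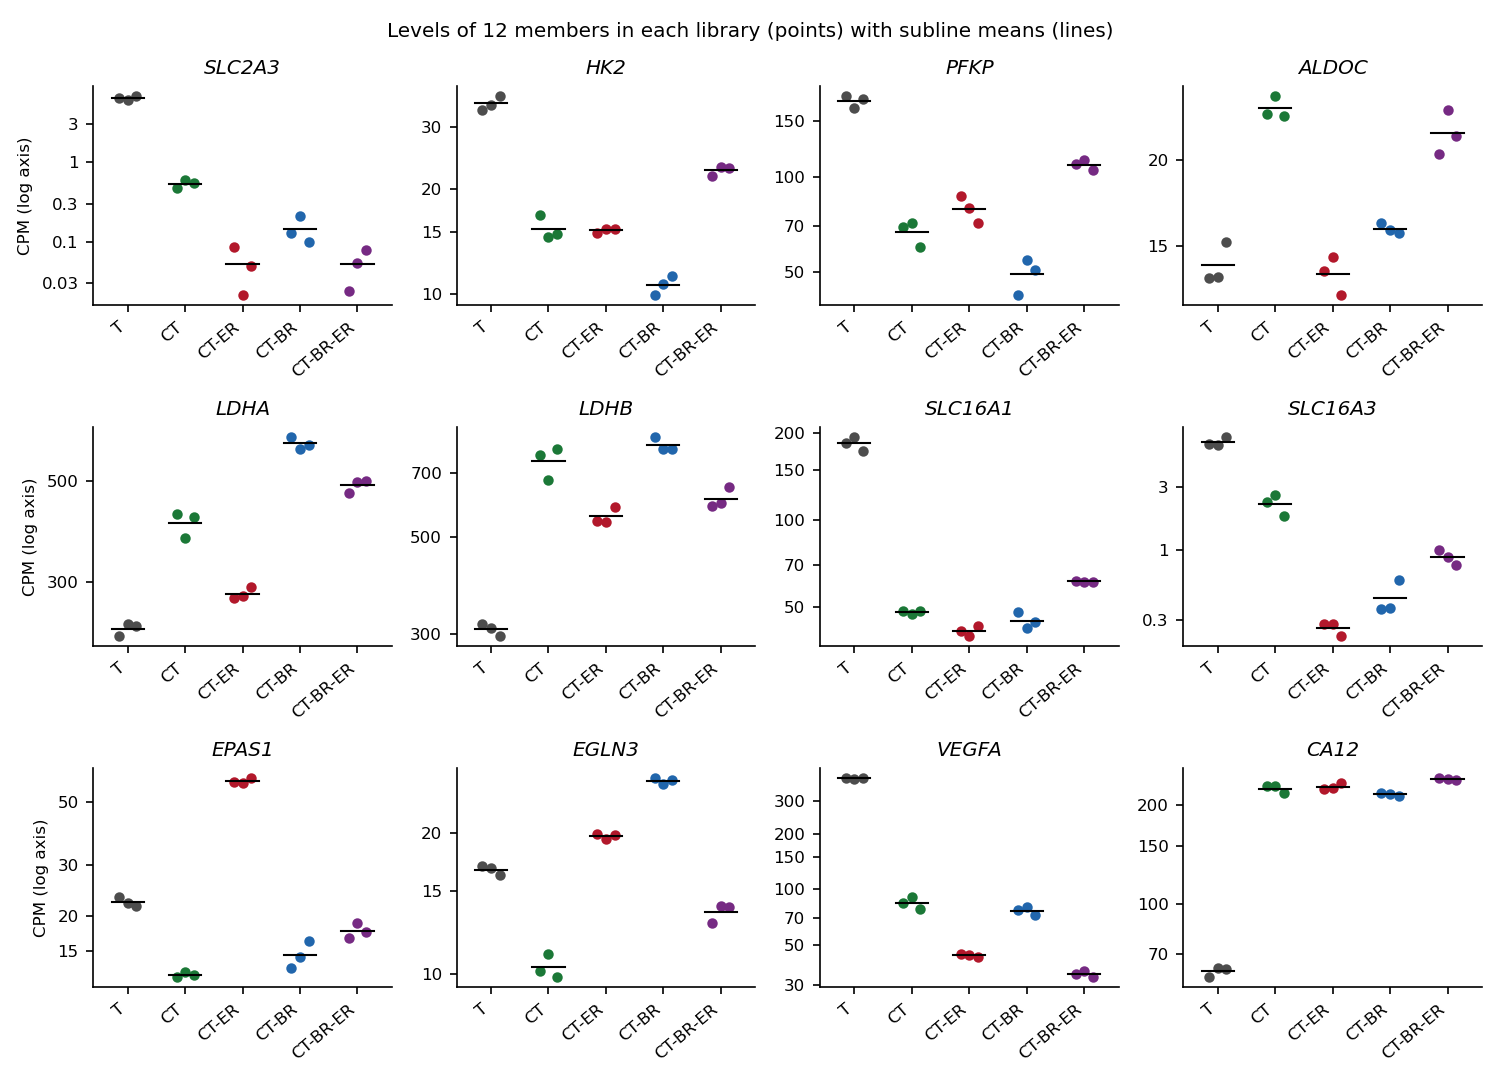
Levels of 12 members in CPM on log axes, 1 point per library and a line at each subline mean, with sublines from VCaP-T at the left to VCaP-CT-BR-ER at the right. HK2 and PFKP are lowest in VCaP-CT-BR and higher again in VCaP-CT-BR-ER, EPAS1 stands out at 58.5 to 60.6 CPM for VCaP-CT-ER, and VEGFA is at 394 to 401 CPM in VCaP-T and at 91.0 CPM or less elsewhere.

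The energy-yielding steps return ATP and NADH. Their 5 genes in the set changed by less than 2-fold in every step, and 4 of them fell in VCaP-CT-ER against VCaP-CT, where 31.2% of all genes fell. GAPDH, the dehydrogenase that is often used as a reference gene, was at 1449.9 ± 33.7 CPM in VCaP-T, 2261 ± 14.96 for VCaP-CT, 2008 ± 43.5 for VCaP-CT-ER, 2557 ± 67.2 for VCaP-CT-BR and 2144 ± 66.9 for VCaP-CT-BR-ER (SD, n = 3). The groups do not overlap, and GAPDH rose 1.57-fold in VCaP-CT against VCaP-T (adjusted p = 1.61e-11) and fell in both enzalutamide steps (log2 −0.22, adjusted p = 9.75e-05, and −0.25, adjusted p = 5.74e-05). It has 65 named pseudogenes with summed levels of 122 to 238 CPM, and 14.2% of its exon bases are shared with another gene model. PGK1, the phosphoglycerate kinase of somatic cells, was at 514 ± 26.0 CPM for VCaP-CT and 375 ± 19.3 for VCaP-CT-ER, a fall of 0.51 log2 units (adjusted p = 1.41e-08). In the same step ENO1, an enolase, fell by 0.25 log2 units (adjusted p = 3.21e-05) and PKM, the pyruvate kinase of proliferating and muscle cells, fell by 0.32 log2 units (adjusted p = 3.23e-06). In VCaP-CT-BR-ER against VCaP-CT-BR, PGK1 gave −0.058 (adjusted p = 0.371) and ENO1 −0.014 (adjusted p = 0.818), and PKM fell by 0.21 log2 units (adjusted p = 0.000898). PGAM1, the phosphoglycerate mutase, stayed between 30.02 and 38.8 CPM.

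Both lactate dehydrogenases rose in VCaP-CT, while both monocarboxylate transporters fell. LDHB, which encodes the subunit that favours lactate oxidation, was at 316, 310.3 and 297 CPM in VCaP-T, 770.1, 676 and 793 for VCaP-CT, 545, 541 and 586 for VCaP-CT-ER, 847, 794 and 797 for VCaP-CT-BR and 589.8, 597 and 651 for VCaP-CT-BR-ER. VCaP-T is lowest, both enzalutamide-resistant sublines lie in between, and VCaP-CT and VCaP-CT-BR are highest. LDHB rose by 1.29 ± 0.061 log2 units in VCaP-CT against VCaP-T (adjusted p = 9.23e-14), fell by 0.47 log2 units in VCaP-CT-ER against VCaP-CT (adjusted p = 7.18e-07) and fell by 0.40 log2 units in VCaP-CT-BR-ER against VCaP-CT-BR (adjusted p = 1.34e-05). LDHA, which encodes the subunit that favours lactate production and is a known HIF target, was at 238 ± 7.78 CPM in VCaP-T, 405 ± 26.5 for VCaP-CT, 283 ± 8.54 for VCaP-CT-ER, 605 ± 18.1 for VCaP-CT-BR and 489.6 ± 17.2 for VCaP-CT-BR-ER (SD, n = 3). The 5 groups do not overlap. LDHA rose 1.72-fold in VCaP-CT against VCaP-T (adjusted p = 2.55e-11) and 1.47-fold in VCaP-CT-BR against VCaP-CT (adjusted p = 1.25e-08), and it fell by 0.57 log2 units in VCaP-CT-ER against VCaP-CT (adjusted p = 4.93e-09) and by 0.30 in VCaP-CT-BR-ER against VCaP-CT-BR (adjusted p = 6.74e-05). Of the windows printed above its own held the most matches, with each CACGTG counted as 2, and their part in these changes was not tested.

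SLC16A1, the transporter that moves lactate in either direction, was at 186, 195 and 174 CPM in VCaP-T, 48.7, 47.5 and 48.6 for VCaP-CT, 41.3, 39.8 and 43.2 for VCaP-CT-ER, 48.1, 42.4 and 44.5 for VCaP-CT-BR and 61.9, 61.3 and 61.4 for VCaP-CT-BR-ER. It fell by 1.93 ± 0.057 log2 units in VCaP-CT against VCaP-T (adjusted p = 2.89e-17) and by 0.27 in VCaP-CT-ER against VCaP-CT (adjusted p = 0.000302), and rose by 0.46 log2 units in VCaP-CT-BR-ER against VCaP-CT-BR (adjusted p = 1.12e-06). SLC16A3, the lactate exporter of strongly glycolytic cells, was scarce, with 230, 228 and 300 counts in VCaP-T, 77, 92 and 66 for VCaP-CT, 13, 13 and 9 for VCaP-CT-ER, 14, 14 and 24 for VCaP-CT-BR and 41, 33 and 30 for VCaP-CT-BR-ER. The enzalutamide steps moved it in opposite directions. SLC16A3 fell by 1.53 ± 0.14 log2 units in VCaP-CT against VCaP-T (adjusted p = 3.04e-09), by 3.12 ± 0.22 in VCaP-CT-ER against VCaP-CT (adjusted p = 9.04e-11) and by 2.34 ± 0.21 in VCaP-CT-BR against VCaP-CT (adjusted p = 6.4e-09), and rose by 1.01 ± 0.24 log2 units in VCaP-CT-BR-ER against VCaP-CT-BR (adjusted p = 0.00172). Part of its exons, 6.04% of the bases, overlaps other gene models, CSNK1D on the other strand among them. Per length SLC16A1 made up at least 97.3% of the FPKM of both transporters in every subline.

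**Figure D4:**
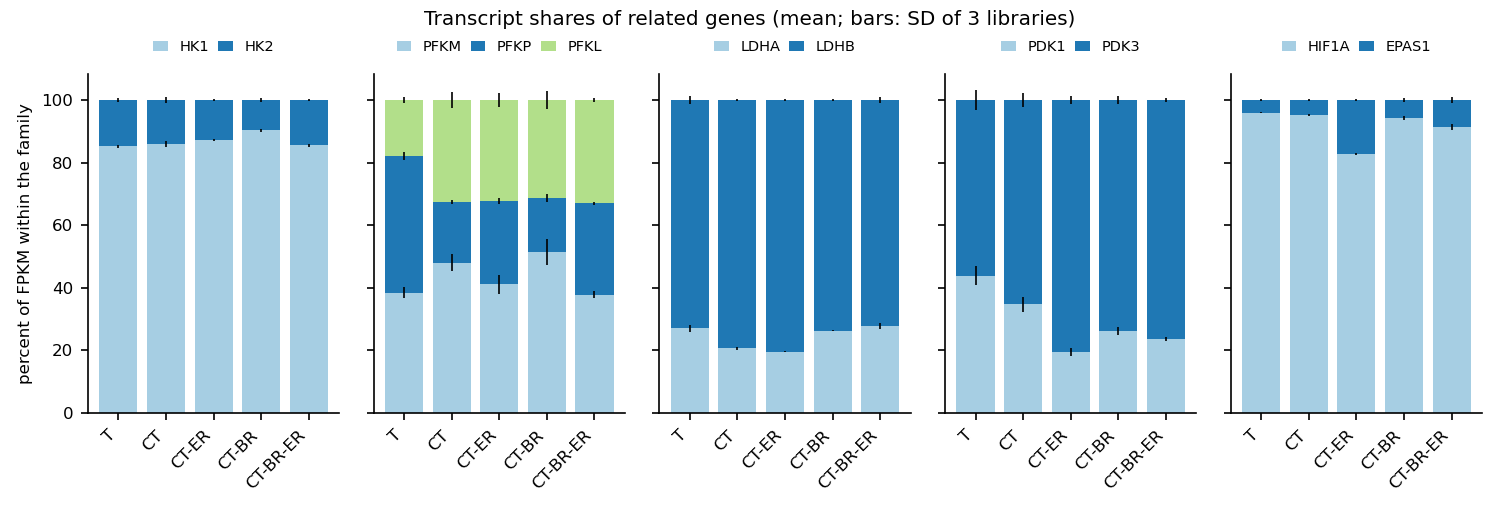
Mean share of the FPKM within 5 groups of related genes in each subline, in percent, with the SD of 3 libraries as bars. PFKP takes 43.7% of its group in VCaP-T and 17.5% to 29.1% elsewhere, and EPAS1 reaches 17.3% beside HIF1A in VCaP-CT-ER and at most 8.66% elsewhere.

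Kinases set how much pyruvate enters the mitochondria and how fast phosphofructokinase runs. PDK1 and PDK3 inhibit pyruvate dehydrogenase, and PFKFB3 and PFKFB4 make and degrade the sugar phosphate that activates phosphofructokinase. PDK3 was at 6.92 ± 0.915 CPM in VCaP-T, 9.38 ± 0.803 for VCaP-CT, 16.4 ± 1.87 for VCaP-CT-ER, 17.3 ± 0.713 for VCaP-CT-BR and 20.1 ± 1.27 for VCaP-CT-BR-ER. It rose 1.68-fold in VCaP-CT-ER against VCaP-CT (adjusted p = 9.03e-07) and 1.82-fold in VCaP-CT-BR against VCaP-CT (adjusted p = 2.29e-07). In the last step its log2 fold change was 0.23 with an adjusted p of 0.0494, a call lost on leaving out VCaP-T replicate 2, VCaP-CT replicate 1 or 2, any of the 3 VCaP-CT-BR libraries or VCaP-CT-BR-ER replicate 1 or 3 (adjusted p up to 0.184). PDK1 took another course, falling by 0.40 log2 units in VCaP-CT-ER against VCaP-CT (adjusted p = 8.07e-05) and rising by 0.28 log2 units in VCaP-CT-BR against VCaP-CT (adjusted p = 0.00273). PDK3 therefore made up 56.1% ± 3.13 of the FPKM of both kinases in VCaP-T and 80.6% ± 1.18 for VCaP-CT-ER (SD, n = 3). PFKFB3 was lowest in VCaP-CT-ER, with 8.10, 8.40 and 8.89 CPM against 16.04, 17.1 and 12.9 for VCaP-CT and 12.5 to 16.8 in all other libraries, and fell by 0.91 log2 units in that step (adjusted p = 2.52e-08). PFKFB4 rose in both enzalutamide steps, by 0.27 (adjusted p = 0.00272) and by 0.39 (adjusted p = 0.000195).

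HIF1A, EPAS1, EGLN1 and EGLN3, the HIF alpha subunits and oxygen sensors of the set, all fell in VCaP-CT against VCaP-T, where 32.2% of all genes fell. All 4 rose in VCaP-CT-ER against VCaP-CT, where 29.6% of all genes rose, but the small rise of HIF1A was lost in some fits given below. EPAS1 encodes the alpha subunit of the HIF that is best known from endothelium and kidney. It was at 23.1, 22.1 and 21.6 CPM in VCaP-T, 12.2, 12.7 and 12.4 for VCaP-CT, 58.9, 58.5 and 60.6 for VCaP-CT-ER, 13.1, 14.3 and 16.2 for VCaP-CT-BR and 16.6, 18.8 and 17.5 for VCaP-CT-BR-ER. VCaP-CT-ER stands alone above all other libraries. EPAS1, on chromosome 2 at 46293667 to 46386703 (GRCh38), fell by 0.83 log2 units in VCaP-CT against VCaP-T (adjusted p = 3.16e-09) and rose 4.605-fold in VCaP-CT-ER against VCaP-CT (log2 2.20 ± 0.073, adjusted p = 2.72e-16). In VCaP-CT-BR-ER against VCaP-CT-BR it rose by 0.28 ± 0.074 log2 units (adjusted p = 0.00363). In VCaP-CT-BR against VCaP-CT the log2 fold change was 0.21 (adjusted p = 0.027), lost without VCaP-CT replicate 1 or 3 or VCaP-CT-BR replicate 3 (adjusted p up to 0.199). The endothelial markers CDH5 and KDR were at or under the floor in all libraries, and the endothelial list summed to at most 0.277 CPM for VCaP-CT-ER. LUM, of the fibroblast list, was at 188 to 218 CPM for VCaP-CT-ER, and its part in the result was not tested. EPAS1 made up 4.11% to 5.73% of the FPKM of both subunits in VCaP-T, VCaP-CT and VCaP-CT-BR, 8.66% ± 0.902 for VCaP-CT-BR-ER and 17.3% ± 0.275 for VCaP-CT-ER.

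EGLN3, a prolyl hydroxylase that is itself induced by HIF, was at 17.0, 16.8 and 16.3 CPM in VCaP-T, 10.2, 11.0 and 9.84 for VCaP-CT, 19.9, 19.4 and 19.8 for VCaP-CT-ER, 26.2, 25.4 and 25.9 for VCaP-CT-BR and 12.8, 14.0 and 13.9 for VCaP-CT-BR-ER. The 5 groups do not overlap, and VCaP-CT-BR is the highest. EGLN3 rose 2.47-fold in VCaP-CT-BR against VCaP-CT (log2 1.30 ± 0.065, adjusted p = 1.14e-12) and 1.84-fold in VCaP-CT-ER against VCaP-CT (adjusted p = 2.01e-10), and fell by 0.93 ± 0.063 log2 units in VCaP-CT-BR-ER against VCaP-CT-BR (adjusted p = 1.48e-10). EGLN1, the main oxygen sensor of the family, had the same signs, at a smaller size in the antagonist steps, with log2 fold changes of −0.68, 0.28, 0.56 and −0.38 over the 4 steps and adjusted p values between 5.14e-10 and 0.00014. HIF1A, the more widely expressed subunit, was at 367 ± 9.43 CPM in VCaP-T, 176 ± 9.63 for VCaP-CT, 201 ± 7.73 for VCaP-CT-ER, 169 ± 7.67 for VCaP-CT-BR and 131 ± 7.10 for VCaP-CT-BR-ER. HIF1A fell by 1.05 ± 0.054 log2 units in VCaP-CT against VCaP-T (adjusted p = 3.57e-13) and by 0.35 in VCaP-CT-BR-ER against VCaP-CT-BR (adjusted p = 1.71e-05). Its rise of 0.14 log2 units in VCaP-CT-ER against VCaP-CT (adjusted p = 0.0305) was lost without VCaP-CT replicate 2 or VCaP-CT-ER replicate 3 (adjusted p up to 0.124) and under 75th percentile scaling. Activity of these factors is set largely by protein stability, which RNA counts do not measure.

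The hypoxia targets did not move together. VEGFA, the main angiogenic growth factor, was at 400.2, 394 and 401 CPM in VCaP-T, 83.9, 91.0 and 78.3 for VCaP-CT, 44.4, 43.8 and 42.7 for VCaP-CT-ER, 77.2, 79.5 and 72.2 for VCaP-CT-BR and 34.6, 36.1 and 33.3 for VCaP-CT-BR-ER. VCaP-T is the highest, VCaP-CT overlaps VCaP-CT-BR, and both enzalutamide-resistant sublines are lowest. VEGFA, on chromosome 6 at 43770184 to 43786487, fell 4.69-fold in VCaP-CT against VCaP-T (log2 −2.23 ± 0.055, adjusted p = 1.47e-18). It fell 2.01-fold in VCaP-CT-ER against VCaP-CT (log2 −1.0045 ± 0.055, adjusted p = 1.22e-12) and 2.19-fold in VCaP-CT-BR-ER against VCaP-CT-BR (log2 −1.13 ± 0.056, adjusted p = 8.18e-13). In VCaP-CT-BR against VCaP-CT its log2 fold change was −0.16 (adjusted p = 0.0147), which was lost without VCaP-CT replicate 1 or 2 or VCaP-CT-BR replicate 3 (adjusted p up to 0.174). LYZ and the endothelial list, described above, were also highest in VCaP-T, and their part in the result was not tested.

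CA12, a carbonic anhydrase of the cell surface that is also known as an oestrogen-responsive gene, went the other way. It was at 59.6, 63.3 and 63.1 CPM in VCaP-T, 229, 229 and 218 for VCaP-CT, 224 to 234 for VCaP-CT-ER, 214 to 218 for VCaP-CT-BR and 238 to 243 for VCaP-CT-BR-ER. CA12 rose 3.66-fold in VCaP-CT against VCaP-T (log2 1.87 ± 0.044, adjusted p = 8.46e-19), and its log2 fold changes in the later steps lay between −0.078 and 0.16. BNIP3, a receptor for the removal of mitochondria, fell by 0.96 ± 0.059 log2 units in VCaP-CT against VCaP-T (adjusted p = 7.55e-12), from 92.5 ± 4.14 to 47.3 ± 2.16 CPM, and stayed between 44.8 and 57.5 CPM in the later means. It has 44 named pseudogenes with summed levels of 9.15 to 20.1 CPM. ADM, the vasodilating peptide adrenomedullin, was scarce and rose in both enzalutamide steps, from 1.35 ± 0.124 to 2.14 ± 0.337 CPM (adjusted p = 0.003) and from 1.57 ± 0.258 to 2.73 ± 0.209 CPM (adjusted p = 0.000265). HILPDA, a lipid droplet protein, rose in VCaP-CT-ER (log2 0.29, adjusted p = 0.00141) and in VCaP-CT-BR (log2 0.38, adjusted p = 0.000133) against VCaP-CT. ANKRD37 lay between 1.44 and 3.26 CPM in the subline means and shares 35.2% of its exon bases with UFSP2 on the other strand, so its level is uncertain. KDM3A, a histone demethylase induced by HIF, was at 55.6 ± 1.88 CPM in VCaP-T and between 43.1 and 47.9 CPM in the other means. HILPDA shares 13.2% of its exon bases with other gene models. CA9 had no count in 12 of the 15 libraries, but it shares 38.5% of its exon bases with ARHGEF39 on the other strand, so its level is uncertain too.

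The difference between the enzalutamide steps was tested as well. It was the log2 fold change of VCaP-CT-BR-ER against VCaP-CT-BR (after bicalutamide) minus that of VCaP-CT-ER against VCaP-CT (direct). With a single derivation of each subline, it cannot separate a drug effect from clone or time in culture. The label of VCaP-CT-BR mentions enzalutamide, so what the step to VCaP-CT-BR-ER added is not certain. The difference was positive past the threshold for 14 members (41.2%, where 25.2% of all genes were) and negative for 7 (20.6%, where 24.5% were). The median difference was 0.19 over the members and 0.008 over all genes tested. A difference of at least 1 on the log2 scale was found in the positive direction for 3 members (8.93% of all genes) and in the negative direction for 2 (6.9% of all genes). By role, the difference was positive for 1 of the 2 members of glucose uptake (SLC2A1). It was positive for 5 of the 8 of the preparatory steps (HK1, HK2, PFKM, PFKP and ALDOC). The same held for 2 of the 5 of the energy-yielding steps (PGK1 and ENO1). It also held for 3 of the 4 of lactate and its transport (LDHA, SLC16A1 and SLC16A3), 2 of the 4 kinases and 1 of the 7 tested hypoxia targets. TPI1, of the preparatory steps, was on the negative side (−0.28, adjusted p = 0.00108), as were all 4 of the HIF subunits and sensors. SLC16A3 had the largest difference, 4.13 ± 0.33 (adjusted p = 1.7e-09), since it fell in the direct step and rose in the other. ALDOC also fell in the direct step and rose after bicalutamide, a difference of 1.32 ± 0.10 (adjusted p = 7.23e-10). HK2 differed by 1.17 ± 0.099 (adjusted p = 4.47e-09) and PFKP by 0.96 ± 0.12 (adjusted p = 7.27e-07). EPAS1 differed by −1.92 ± 0.10 (adjusted p = 3.29e-12) and EGLN3, which rose in the direct step and fell in the other, by −1.80 ± 0.090 (adjusted p = 1.09e-12). VEGFA fell in both steps, with a difference of −0.13 ± 0.078 (adjusted p = 0.181), and LDHB differed by 0.072 ± 0.085 (adjusted p = 0.51). The difference was taken between sublines of different history, and the level of VCaP-CT-BR itself enters it. Compared with VCaP-CT, that level was low for HK2 and SLC16A3 and high for EGLN3. It was also low for ALDOC (log2 −0.60, adjusted p = 4.37e-07) and PFKP (log2 −0.45, adjusted p = 0.000104), and slightly higher for EPAS1 (log2 0.21).

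The other genes of these pathways were taken as 3 further lists. Among 28 other genes of glycolysis and pyruvate entry, 19 could be tested. Of these, 6 rose and 5 fell in VCaP-CT against VCaP-T, 6 and 6 for VCaP-CT-ER against VCaP-CT, 8 and 5 for VCaP-CT-BR against VCaP-CT and 7 and 7 for VCaP-CT-BR-ER against VCaP-CT-BR, with medians between 0 and 0.068 on the log2 scale. These are 31.6% and 26.3% of the 19 in the first step (33.1% and 32.2% of all genes), 31.6% and 31.6% in the direct enzalutamide step (29.6% and 31.2%), 42.1% and 26.3% in the bicalutamide step (26.1% and 27%) and 36.8% and 36.8% in the last (21.2% and 21.7%). ENO2, the neuronal enolase, rose by 1.62 ± 0.057 log2 units in VCaP-CT (adjusted p = 6.1e-16), from 21.8 to 66.4 CPM. PFKFB2, another kinase of phosphofructokinase control, fell by 1.89 ± 0.083 log2 units in the same step (adjusted p = 2.63e-14) and rose by 0.94 log2 units in VCaP-CT-ER against VCaP-CT (adjusted p = 3.72e-09). SLC2A10, a glucose transporter, fell by 2.25 ± 0.092 log2 units in VCaP-CT-ER against VCaP-CT (adjusted p = 1.05e-14) and by 1.61 ± 0.089 in VCaP-CT-BR against VCaP-CT (adjusted p = 5.68e-12), and its means ran 73.5, 19.9, 4.34, 6.60 and 5.09 CPM from VCaP-T to VCaP-CT-BR-ER in the order used above. HKDC1, a hexokinase-like gene, had 24, 26 and 33 counts in VCaP-T and 0 in every VCaP-CT library, and the exact 95% interval of the ratio of summed counts reached up to 0.0501 (counting error only). It had 0 to 3 counts in each later library, so no fold is given there.

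The other HIF regulators, 12 of 13 tested, had log2 fold changes between −0.35 and 0.75 over the 4 steps. In VCaP-CT against VCaP-T 6 rose and 3 fell, in VCaP-CT-ER against VCaP-CT 3 rose and 1 fell, in VCaP-CT-BR against VCaP-CT 4 rose and 1 fell, and in VCaP-CT-BR-ER against VCaP-CT-BR 2 rose and 5 fell. Beside the shares of all genes just given, 50% rose and 25% fell in the first step, 25% and 8.33% in the direct enzalutamide step, 33.3% and 8.33% in the bicalutamide step and 16.7% and 41.7% in the last. ARNT, the beta subunit that pairs with both alpha subunits, rose by 0.41 log2 units in VCaP-CT against VCaP-T (adjusted p = 2.79e-07), while its relative ARNT2 fell by 0.28 log2 units (adjusted p = 3.42e-05). They were not the extremes of the list, which ran from −0.30 to 0.75 in that step. HIF1AN, the asparaginyl hydroxylase that blocks HIF activity, rose by 0.28 log2 units in VCaP-CT-ER against VCaP-CT (adjusted p = 0.000237).

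Of 30 other hypoxia targets, 26 could be tested, and 14 fell and 5 rose in VCaP-CT against VCaP-T (53.8% and 19.2%, where 32.2% and 33.1% of all genes did, with a median of −0.46). DDIT4, an inhibitor of mTOR signalling, fell by 3.91 ± 0.11 log2 units in that step (adjusted p = 6.73e-18), from 145 to 9.58 CPM, and STC2, a secreted glycoprotein, by 1.98 ± 0.057 (adjusted p = 1.91e-17). MXI1, a MYC antagonist, rose by 1.22 ± 0.063 log2 units (adjusted p = 4.01e-13). In VCaP-CT-ER against VCaP-CT 7 rose and 8 fell (26.9% and 30.8%, against 29.6% and 31.2% of all genes), in VCaP-CT-BR against VCaP-CT 7 rose and 14 fell (26.9% and 53.8%, against 26.1% and 27%), and in VCaP-CT-BR-ER against VCaP-CT-BR 11 rose and 4 fell (42.3% and 15.4%, against 21.2% and 21.7%). IGFBP3, an insulin-like growth factor binding protein, rose by 4.66 ± 0.15 log2 units in VCaP-CT-ER against VCaP-CT (adjusted p = 1.65e-16) and by 3.55 ± 0.15 in VCaP-CT-BR against VCaP-CT (adjusted p = 6.45e-14), from a mean of 9.90 CPM for VCaP-CT to 259 and 117 CPM. ERO1A, an oxidase of the endoplasmic reticulum, rose by 1.25 ± 0.071 log2 units in VCaP-CT-ER against VCaP-CT (adjusted p = 2.62e-12), where MXI1 fell by 1.30 ± 0.063 log2 units (adjusted p = 1.55e-13). The list's log2 fold changes in VCaP-CT-BR against VCaP-CT ran from −1.76 to 3.55, with 2 falls and 1 rise of at least 2-fold. The summed counts of ANGPTL4 were 29 against 75 in this step (ratio 0.348, exact interval 0.218 to 0.540, counting error only). Those of MIR210HG were 13 against 40 (ratio 0.292, interval 0.143 to 0.558). In VCaP-CT-BR-ER against VCaP-CT-BR, DDIT4 rose by 1.48 ± 0.12 log2 units (adjusted p = 1.7e-09).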

How the data were processed

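Bulk RNA-seq of 15 libraries, 3 for each of 5 VCaP sublines, was analysed. The authors aligned reads with STAR 2.5.4b and counted fragments per gene with featureCounts 1.6.2, without regard to strand, and deposited raw counts that are not normalized. The file headers also give the exon length of each gene, in bases, a value of no sample. CPM and FPKM were computed from these counts with the library totals (33.7 to 46.9 M fragments) and that length. Symbols came from GENCODE release 44 by identifier (98.9% of 58381 genes), and positions from the counting annotation on GRCh38. 

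The steps between sublines were compared by edgeR 4.0.16 (R 4.3.3), using the filterByExpr filter (minimum count 10), which kept 19621 genes with 99.94% of the counts, TMM scaling (factors 0.984 to 1.03), a term per subline over all 15 libraries (10 residual degrees of freedom, biological coefficient of variation 0.0609), the quasi-likelihood F test, and p-values adjusted by Benjamini and Hochberg over all genes tested, with a threshold of 0.05. The study's methods state no test between these sublines. Tested on simulated data for VCaP-CT-ER against VCaP-CT with 19026 genes, this fit called 76 of 100 genes changed 2-fold on the linear scale (log2 of 1), 94 of 100 changed by a log2 of 2, and 11 unchanged ones. Intervals of count ratios are exact binomial at 95% and cover counting error only, as does the floor of 3 counts.

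The 35 members, the lists and the tests were chosen with earlier results of these data known. All members are accounted for. The level of 1 immune marker is not reported here. Statistics in full go to members past the threshold with at least a 2-fold change in a step, at most 6 per direction, and to differences between the enzalutamide steps of at least 1 on the log2 scale, and other members are given with their values by role. Of the other lists at most 4 genes per step are named, and these do not always include the largest rise and the largest fall. Replicate numbers were not taken as pairs in the main fit. The correlations of same-numbered libraries' deviations from their subline means had both signs and ran from −0.586 to 0.593. Differently numbered libraries were not compared in this way, so these values cannot decide whether the samples were paired. Alternatives were DESeq2 1.42.0, other scalings and filters, fits of only the sublines compared, a replicate block, and fits that omitted 1 library each. Python 3.11.15, pandas 2.3.3, scipy 1.17.1 and matplotlib 3.10.9 were used for tables and figures.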

Additional observations from a re-analysis of the deposited data

Results flagged for a closer look

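For 5 of the 34 tested members the log2 fold changes of the enzalutamide steps differed by at least 1. In each the difference itself passed the threshold in the edgeR fit. The difference was positive for 3 and negative for 2, close to the shares of all genes tested (8.93% and 6.9%). Each subline had a single derivation, and the label of VCaP-CT-BR mentions enzalutamide, so a drug effect cannot be told apart. SLC16A3, a lactate exporter, differed by 4.13 (adjusted p = 1.7e-09), on 9 to 92 counts in each library of VCaP-CT and the 3 antagonist-resistant sublines. ALDOC, an aldolase, differed by 1.32 (adjusted p = 7.23e-10) and HK2, a hexokinase, by 1.17 (adjusted p = 4.47e-09). EPAS1, a HIF subunit, differed by −1.92 (adjusted p = 3.29e-12) and EGLN3, an oxygen sensor, by −1.80 (adjusted p = 1.09e-12). All 5 calls held in each of the 15 fits that left out 1 library. The level of VCaP-CT-BR enters each difference. Compared with VCaP-CT, it was lower for SLC16A3, ALDOC and HK2, higher for EGLN3 and slightly higher for EPAS1.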

How the results depend on the processing

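The numbers of members called in the 5 comparisons were 32, 28, 20, 22 and 21 and stayed within 1.5 times of these under every alternative run, and no member was called in the other direction. Leaving out each library in turn lost 4 of 32 calls in VCaP-CT against VCaP-T, 4 of 28 in VCaP-CT-ER against VCaP-CT, 3 of 20 in VCaP-CT-BR against VCaP-CT and 3 of 22 in VCaP-CT-BR-ER against VCaP-CT-BR in at least 1 of the 15 fits, and none of 21 in the difference between the enzalutamide steps. Beyond those named in the report, the calls lost were of members with changes under 2-fold (PFKM, PFKFB3, ADM and HILPDA in VCaP-CT against VCaP-T, ANKRD37 and KDM3A in VCaP-CT-ER against VCaP-CT, PFKFB4 in VCaP-CT-BR against VCaP-CT, and PGAM1 in the last step). SLC2A3 in VCaP-CT-BR-ER against VCaP-CT-BR lost its call without the filter on low counts (adjusted p = 0.101), in DESeq2 (0.077) and with the replicate block (0.0509), and the block, in which replicates share only a number, changed no other call. Leaving out 1 library gave SLC2A3 log2 fold changes from −1.83 to −1.08 there. Other scalings lost 3 calls and gained 4 in all, and the median of all genes moved by less than 0.1 on the log2 scale under each. Without a filter 38661 genes were tested, and 8 member calls were lost and 2 gained over the 5 comparisons. CA12 in the difference between the enzalutamide steps was among those lost (adjusted p = 0.0808). Fits of only the sublines compared lost 5 calls and gained 1. With at least 10 counts required in every library, SLC2A3 and SLC16A3 were not tested. Depth limits SLC2A3 and CA9, at or near the floor of 3 counts in several libraries.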
